A study of Macaca mulatta with 24 samples.

Results

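The genes described here form the switch that lets a cell leave G1 and start DNA synthesis. They are the D-type cyclins CCND2 and CCND3, their kinases CDK4 and CDK6, the inhibitors CDKN2B, CDKN2C, CDKN2D and CDKN1B, and the pocket proteins RB1 and RBL2. Members were chosen by name: every non-control probe whose gene name in the scanner output was one of these 10 symbols was kept, which gave 17 probes out of 43603 and 10 genes out of 14514 named genes. All 17 probes passed the filter on dim probes, so every member was tested.

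A D-type cyclin binds CDK4 or CDK6, and the active kinase phosphorylates RB1 and its relative RBL2, which then release the E2F transcription factors that switch on replication genes. INK4 proteins (CDKN2B, also called p15; CDKN2C, p18; CDKN2D, p19) bind CDK4 and CDK6 directly, whereas CDKN1B (p27) binds cyclin-kinase complexes and is best known for restraining CDK2. In blood, most circulating leukocytes do not divide, and these genes are best known there for the expansion of marrow precursors and of activated lymphocytes.

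The study followed the blood of adult rhesus macaques (Macaca mulatta) through the first week after a single whole-body dose. Whole-blood RNA was depleted of globin transcripts, labelled with Cy3 and hybridized to a rhesus array design of Agilent, 1 sample to an array. Of the 24 arrays, 7 hold blood drawn before irradiation (dose 0 Gy) and 17 hold blood drawn after 4 Gy, with 4 from day 3, 6 from day 5 and 7 from day 7. Replicate numbers 1 to 4 are males and 5 to 7 are females. Day 3 held numbers 1, 2, 4 and 7, day 5 held every number except 5, and day 7 held all 7. The labels do not state that a number is the same animal on each day, and the within-animal values below assume it. The sample labels call the radiation X-rays and the pre-irradiation samples day 0, while the paper names a cobalt gamma source and a collection some days earlier. No array of an unirradiated animal at a later day was used here, so irradiation and the passage of time cannot be told apart.

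Between 48.3% and 61.2% of the probes were well above background on an array, and arrays of a group correlated with r between 0.931 and 0.978 across the tested probes. Their number limits the precision. The arrays lay on 6 slides and were scanned in 2 sessions. Session 1 held 6 pre-irradiation and 6 day 7 arrays. Session 2 held every day 3 and day 5 array, with pre-irradiation replicate 5 and day 7 replicate 5. Day 7 could therefore be compared with pre-irradiation within session 1, but days 3 and 5 only against 1 pre-irradiation array, whose spread limma then takes to be that of the later arrays. That array, replicate 5, held the highest CCND3 and CDK4 and the lowest CCND2 and RB1 signal of the 7, so such values lean on its position. T-cell, NK-cell, monocyte and neutrophil markers were measured on the arrays of every group, with ALPL alone among the 7 tested neutrophil genes not above background on any pre-irradiation array.

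Values below are log2 processed signals normalized to the median array. A change is the difference of the group means, positive where the later group was higher, with its standard error (SE). A probe was called changed when limma gave a Benjamini-Hochberg adjusted p under 0.005 over all tested probes, and a gene stands for its probe with the highest mean signal.

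At day 3, CCND3 and CDKN2B rose and RB1 fell. At day 5, CCND2 and CDKN2B rose and CDK4 fell. At day 7, CCND2, CDK6 and CDKN2B rose and CDK4 fell. The CDK4 calls rest on its brighter probe, and its second probe was called on no day. That made 3 of 10 members called at day 3 against a background of 13.5% of all named genes, 3 of 10 at day 5 against 15.3%, and 4 of 10 at day 7 against 9.85%. Upwards, 2, 2 and 3 members were called, where 5.9%, 6.24% and 2.71% of named genes were, and downwards 1 on each day, where 7.57%, 9.09% and 7.14% were. Of the 17 probes, 5, 5 and 7 were called, beside 13.5%, 16.7% and 10.9% of all tested probes. Probe counts here and below take in 2 RB1 probes shifted by 1 base, which are not separate measurements, both called at day 3. The day 7 count takes in the dimmer CDKN2B probe, well above background on 1 of 7 pre-irradiation arrays. The median change over the 10 members was 0.12, -0.02 and -0.04 on these days, beside medians over all genes of -0.00, -0.01 and -0.01. All 3 comparisons share the 7 pre-irradiation arrays. With the replicate number as a block, which pairs the arrays of an animal, limma called none of the 10 at day 3, 3 at day 5 and 3 at day 7. Without the block, the unadjusted p was under 0.05 for 7, 5 and 5 members and for 12, 11 and 10 of the 17 probes, as it was for 46.5%, 45.5% and 39.5% of all tested probes.

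**Figure D1:**
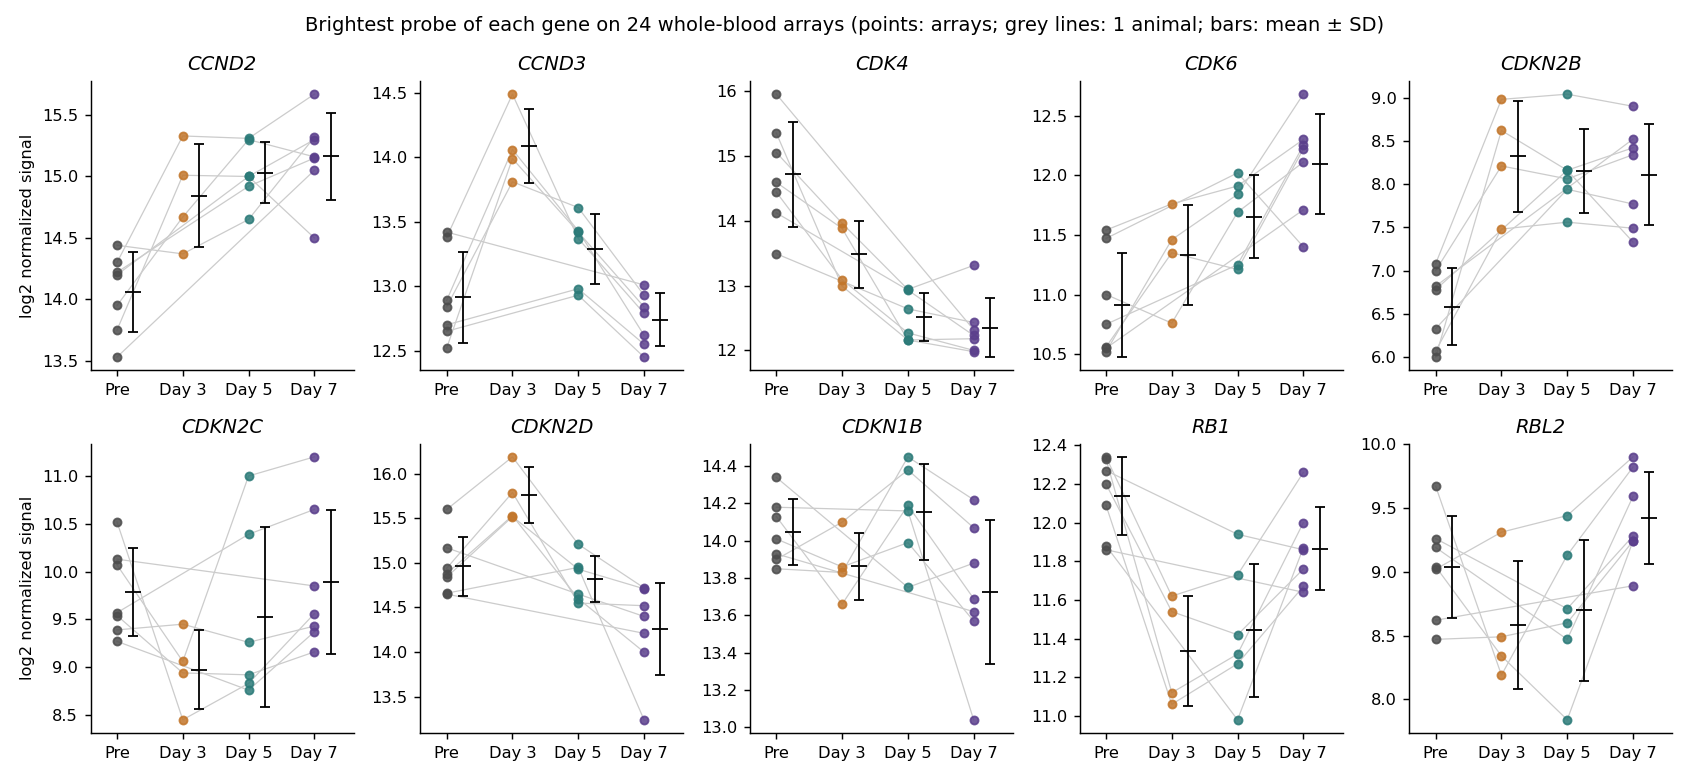
Normalized log2 signal (vertical axis, a separate scale for each gene) of the brightest probe of the 10 genes on the 24 arrays, in time order from pre-irradiation to the last day. Points are arrays, grey lines join the arrays of one animal, and bars are the group mean with its SD. CDKN2B lies above every pre-irradiation array on each later day, CDK4 lies below them at days 5 and 7, and CCND3 lies above them at day 3.

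CCND2 was called higher at days 5 and 7 with its brighter probe and on all 3 days with its other probe, and CCND3 was called higher at day 3. CCND2 is a cyclin that growth-factor and cytokine signals induce in lymphoid and myeloid cells. Its signal ran from 13.53 to 14.44 (median 14.20) on the 7 pre-irradiation arrays. At day 3 the arrays read 14.37, 15.33, 14.67 and 15.01, at day 5 they ran from 14.65 to 15.31 (median 15.00), and at day 7 from 14.50 to 15.67 (median 15.16). Every day 5 and day 7 array lay above every pre-irradiation array, as did 3 of 4 arrays at day 3. Such a separation upwards was found in 4.98% of named genes at day 5 and 2.08% at day 7.

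The CCND2 change was 0.79 at day 3 (SE 0.23, adjusted p = 0.0194, not called), 0.98 at day 5 (SE 0.17, adjusted p = 0.000818, 1.97-fold) and 1.11 at day 7 (SE 0.19, adjusted p = 0.000731, 2.16-fold). Within animals CCND2 was higher in 7 of 7 at day 7, by 0.30 to 1.55. In the blocked fit the day 5 value was 0.89 with an adjusted p of 0.00582, not called. The day 5 change was also not called without replicate 4 (0.91, adjusted p = 0.00505), with the slide as a block (1.22, adjusted p = 0.207) or with normexp background correction, where it shrank to 0.41 (adjusted p = 0.549). The day 7 change was not called without replicate 7 (1.03, adjusted p = 0.00535) or with normexp (1.24, adjusted p = 0.0752). Within session 1 the day 7 change was 1.04 (adjusted p = 0.00313), and against the single pre-irradiation array of session 2 the day 5 change was 1.51 (adjusted p = 0.0474). In whole blood, a change in the number of cells of a type and a change in RNA per cell cannot be told apart.

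A second CCND2 probe, printed here because it shows the same rise from another place in the transcript, lay on chr11:4404288-4404347 (rheMac2, plus strand), at base 1282 of the transcript named in the array file, while the brighter probe lay on chr11:4409538-4409597, at base 6331.

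CCND2 second probe: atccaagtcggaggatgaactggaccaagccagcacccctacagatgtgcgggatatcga

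With it CCND2 was higher on 4 of 4, 6 of 6 and 7 of 7 arrays than on any pre-irradiation array, and it was called on each day. Upward separation held for 9.08%, 4.98% and 2.08% of named genes at their brightest probe on days 3, 5 and 7. Changes were 0.90 (SE 0.19, adjusted p = 0.00409) at day 3, 1.26 (SE 0.20, adjusted p = 0.000396) at day 5 and 1.39 (SE 0.16, adjusted p = 3.43e-05) at day 7. The changes of the 2 probes differed by 0.11 to 0.29, with exact permutation p of 0.618, 0.161 and 0.231 (two-sided) by day.

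CCND3, the D-type cyclin known for the expansion of lymphoid and erythroid precursors, was called at day 3 and not against pre-irradiation at days 5 or 7. It ran from 12.52 to 13.42 (median 12.84) before irradiation, and the 4 day 3 arrays read 14.06, 14.49, 13.99 and 13.81, all above the pre-irradiation range. At day 5 it ran from 12.93 to 13.61 (median 13.40), and at day 7 from 12.45 to 13.01 (median 12.79), back inside or just under the pre-irradiation range. The change was 1.17 at day 3 (SE 0.22, adjusted p = 0.00203, 2.25-fold), and all 4 animals were higher, by 0.97 to 1.47. An upward separation of this kind held in 9.08% of named genes at day 3.

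Changes of CCND3 at day 5 (0.37, 95% interval -0.02 to 0.77) and day 7 (-0.17, interval -0.54 to 0.19) were not called, though at day 5 it was higher in 5 of 6 animals (median 0.41) and 2 of 6 arrays lay above the pre-irradiation range. Against day 3, day 7 was lower by -1.35 (SE 0.19, adjusted p = 0.00282). CCND3 was the only member called between days 3 and 7, where 1.59% of named genes were called and 1.22% were called lower. The number of members called there was 0 with the replicate, slide or session block and with quantile normalization, and all but 1 of the day 7 arrays were scanned in the session that held no day 3 array. The unadjusted p was under 0.05 there for 10 of the 17 member probes and for 32.7% of all probes. With the animal as a block the day 3 change was 1.18 with an adjusted p of 0.0091, and without replicates 1, 2, 4 or 7 it was not called, nor with normexp (1.07, adjusted p = 0.126), the session block (0.79, adjusted p = 0.0449) or the slide block (0.60, adjusted p = 0.235). Against the single pre-irradiation array of session 2 the day 3 change was 0.67 (adjusted p = 0.432).

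Platelet markers moved with the CCND3 day 3 level. All 9 tested platelet genes were called higher at day 3 (median change 2.95), but 2 of them on day 5 and 0 on day 7. Among all named genes 5.9%, 6.24% and 2.71% were called higher on these days. Pre-irradiation arrays had a summed platelet signal of 18800 to 59200. Day 3 arrays had 199000 to 345000, day 5 arrays 58900 to 82200 and day 7 arrays 22200 to 68000. The defining markers GP1BA and ITGB3 were not above background on any pre-irradiation array and were above it on later arrays. Their part in the CCND3 result was not tested.

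Within arrays CCND2 and CCND3 separated with time. The change of CCND2 minus that of CCND3 was -0.38 at day 3 (exact permutation p = 0.23), 0.60 at day 5 (p = 0.0256, exact) and 1.28 at day 7 (p = 0.000583, exact, the smallest this split of 7 against 7 allows). This is one of 30 such within-array comparisons of probes run here, and its Benjamini-Hochberg adjusted values over the 30 were 0.33, 0.0452 and 0.00389. These permutations treat arrays as unpaired. Exact sign flips of the changes within animals, a test added after seeing the data, cannot go below a p of 0.125 with the 4 animals of day 3, 0.0312 with the 6 of day 5 and 0.0156 with the 7 of day 7. After adjustment none of the 30 was under 0.0781. The CCND2 minus CCND3 difference was higher in 5 of 6 animals at day 5 (exact p = 0.0625) and in 7 of 7 at day 7 (exact p = 0.0156).

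**Figure D2:**
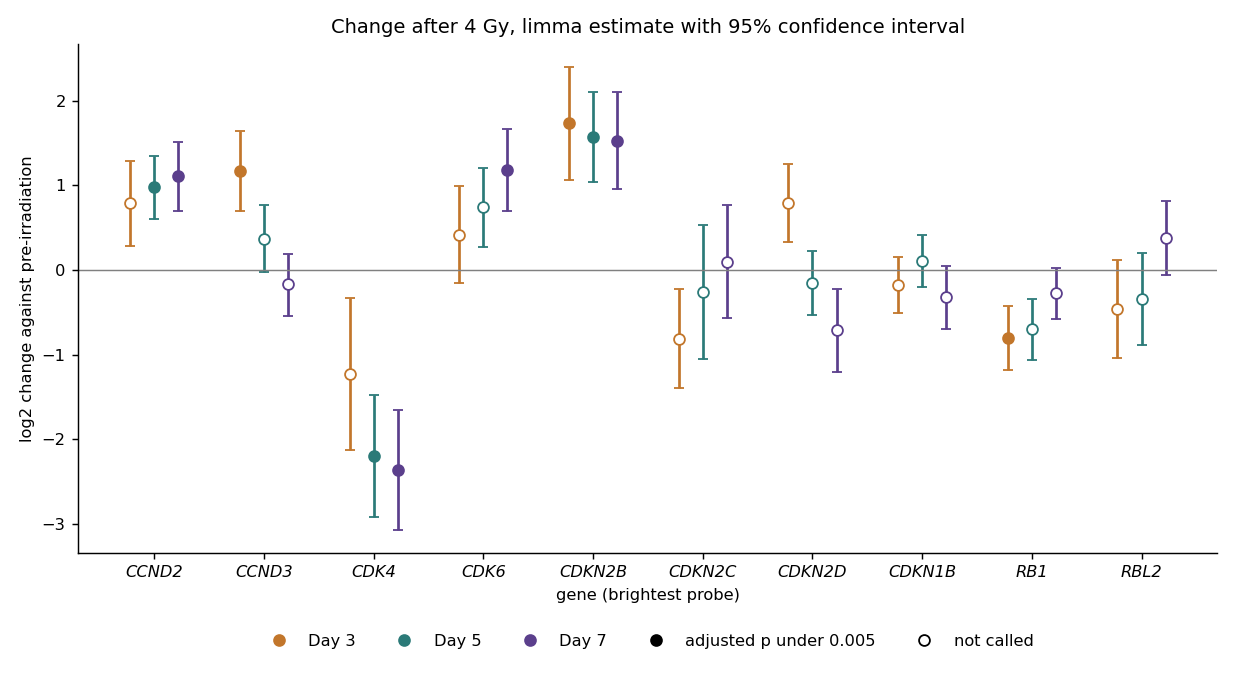
Change against the pre-irradiation arrays (vertical axis, log2) of the 10 genes at days 3, 5 and 7, with the 95% confidence interval of the limma estimate. Filled points passed the adjusted p threshold of 0.005 and open points did not. CDK4 at days 5 and 7 is the lowest of the plotted changes, and CDKN2B is the only gene filled on all 3 days.

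At their brighter probes the kinases went opposite ways, CDK4 called lower at days 5 and 7 and CDK6 higher at day 7. A second CDK4 probe, given below, was called on no day. CDK4, the catalytic partner of D-type cyclins in most tissues, read 14.59, 14.44, 14.12, 15.05, 15.95, 13.49 and 15.35 on pre-irradiation arrays 1 to 7 at its brighter probe. The animals differed widely before irradiation (SD 0.81), the most of any member. Day 3 arrays read 13.88, 13.09, 13.96 and 12.99. At day 5 the range was 12.16 to 12.94 (median 12.46), and at day 7 it was 11.98 to 13.31 (median 12.23). All 6 day 5 and all 7 day 7 arrays lay below every pre-irradiation array, which was so for 8.3% and 6% of named genes.

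At the brighter probe the CDK4 change was -1.23 at day 3 (SE 0.41, adjusted p = 0.036, not called), -2.20 at day 5 (SE 0.34, adjusted p = 0.000264, 4.58-fold lower) and -2.36 at day 7 (SE 0.33, adjusted p = 0.000134, 5.15-fold lower). It was lower in each animal on every day, by -1.06 to -3.63 at day 7. Within session 1 the day 7 change was -2.15 (adjusted p = 0.000559), and it was called at day 7 under all 21 alternatives with a test. Against the single pre-irradiation array of session 2 the day 5 change was -3.43 (adjusted p = 0.00506, not called), and it was not called with normexp (-2.53, adjusted p = 0.0115) or the slide block (-2.93, adjusted p = 0.035).

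A second CDK4 probe did not pass the test on any day. Its 60 bases span 1222 bases of the genome, chr11:54838414-54839635 on the minus strand (rheMac2), so it crosses at least 1 splice junction, and it starts at base 796 of the transcript. The brighter probe lies on chr11:54837145-54837204 and starts at base 1292. The sequence of the junction probe is given because the CDK4 result depends on which of these probes is read.

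CDK4 junction probe: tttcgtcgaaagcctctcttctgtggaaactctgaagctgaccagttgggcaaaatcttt

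With the junction probe the pre-irradiation arrays ran from 9.94 to 10.66 (median 10.26). At day 3 they read 9.87, 10.01, 9.61 and 10.05, at day 5 they ran from 9.63 to 10.46 (median 9.77), and at day 7 from 9.39 to 10.21 (median 9.95). The groups overlapped on every day. Changes were -0.37 (SE 0.17, adjusted p = 0.114), -0.32 (SE 0.18, adjusted p = 0.181) and -0.39 (SE 0.16, adjusted p = 0.0902), and the day 7 interval was -0.73 to -0.04.

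Within arrays the junction probe changed less than the brighter one, by 0.87 at day 3 (exact permutation p = 0.133), 1.88 at day 5 (exact p = 0.00117) and 1.98 at day 7 (exact p = 0.000583). Adjusted over the 30 comparisons the values were 0.222, 0.00389 and 0.00389. The difference had this sign in 4 of 4, 6 of 6 and 7 of 7 animals. The cause of the difference between the probes was not tested.

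Erythroid and B-cell markers were also lower on days 3, 5 and 7. Of 11 tested erythroid genes, 9, 11 and 9 were called lower on these days, with median changes of -3.51, -4.50 and -4.11. The share of all named genes called lower was 7.57%, 9.09% and 7.14%. From day 5 to day 7 the erythroid list had a median change of 0.77, where the brighter CDK4 probe changed by -0.17. B-cell genes had median changes of -3.40, -3.62 and -3.58 against pre-irradiation. The summed erythroid signal ran from 1200000 to 2790000 on pre-irradiation arrays. Day 3 arrays had 340000 to 780000, day 5 arrays 80500 to 128000 and day 7 arrays 21700 to 927000. CA1 was not above background on any day 3 or day 5 array, nor SLC4A1 on any day 5 array. The part of these markers in the CDK4 result was not tested.

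CDK6, the partner kinase most used by blood cells, was called at day 7. Its brighter probe ran from 10.52 to 11.54 (median 10.75) before irradiation, read 10.76, 11.46, 11.76 and 11.35 at day 3, ran from 11.21 to 12.02 (median 11.77) at day 5 and from 11.40 to 12.68 (median 12.22) at day 7. Of the arrays, 1 of 4, 4 of 6 and 6 of 7 lay above all pre-irradiation arrays. The change was 0.42 at day 3 (adjusted p = 0.229), 0.74 at day 5 (SE 0.22, adjusted p = 0.0177) and 1.18 at day 7 (SE 0.23, adjusted p = 0.00157, 2.27-fold). With the animal as a block the day 7 change was again 1.18 with an adjusted p of 0.00757, and it was not called without replicate 1, 2, 6 or 7 or with normexp (1.23, adjusted p = 0.0562).

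The dimmer CDK6 probe, at chr3:124634612-124634671 (rheMac2), gave changes of 0.85 at day 3 (SE 0.24, adjusted p = 0.0163, not called), 1.35 at day 5 (SE 0.18, adjusted p = 8.98e-05) and 1.88 at day 7 (SE 0.19, adjusted p = 1.32e-05, 3.67-fold). All 7 of its day 7 arrays, from 9.48 to 10.24, lay above the pre-irradiation maximum of 8.44, a separation that 2.08% of named genes showed. It changed more than the brighter probe by 0.43, 0.61 and 0.69 on days 3, 5 and 7, with exact permutation p of 0.0242, 0.00816 and 0.0122 (adjusted over the 30 comparisons 0.0452, 0.0245 and 0.0282). Within animals the dimmer probe changed more in 4 of 4, 6 of 6 and 6 of 7, with exact sign-flip p of 0.125, 0.0312 and 0.0625, none under 0.05 after adjustment (0.197, 0.0852 and 0.144).

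Comparing brighter probes within arrays, CDK6 gained on CDK4 by 1.65 at day 3 (exact permutation p = 0.0182), 2.94 at day 5 (exact p = 0.00117) and 3.55 at day 7 (exact p = 0.000583), with adjusted values of 0.0364, 0.00389 and 0.00389. All animals with arrays on both days showed this sign. It uses the CDK4 probe that fell, not the junction probe.

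**Figure D3:**
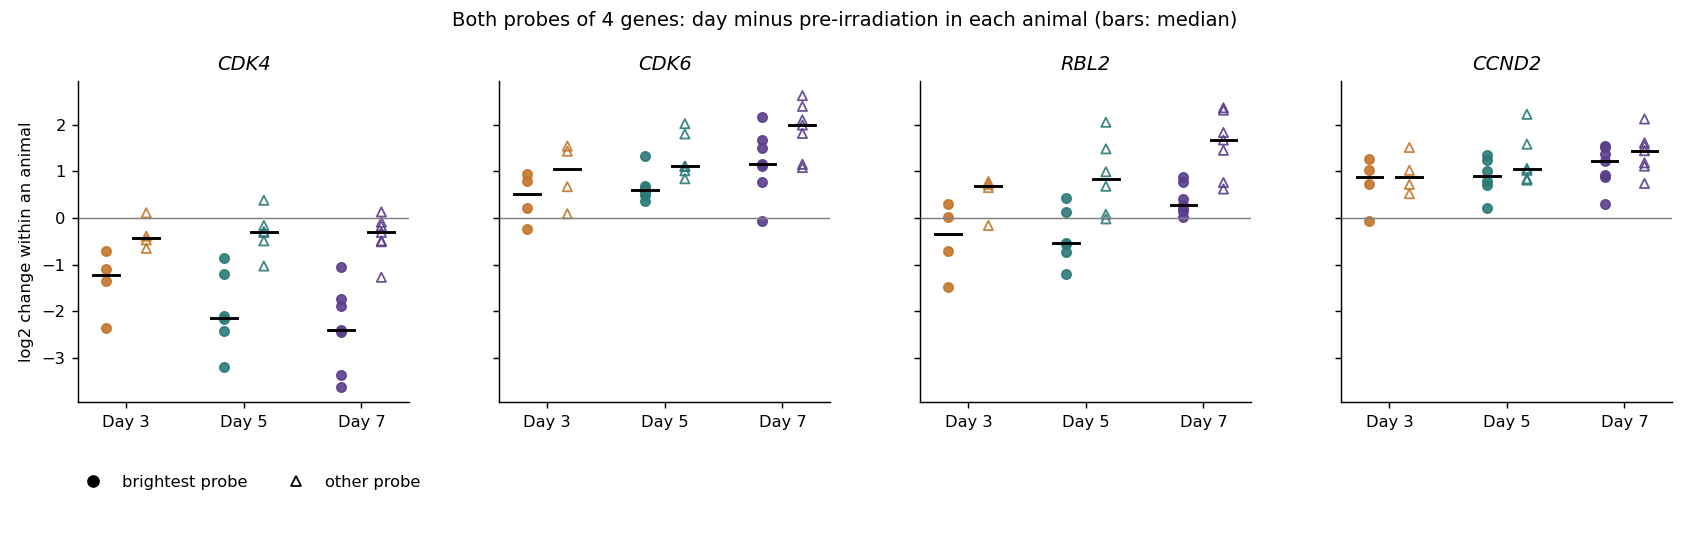
Change within each animal, day minus pre-irradiation (vertical axis, log2), at both probes of CDK4, CDK6, RBL2 and CCND2. Circles are the brightest probe, triangles the other, and bars the median over animals. The CDK4 circles reach -3.63 at day 7 while its triangles lie between -1.27 and 0.13, and the RBL2 triangles start from arrays where that probe was not above background.

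CDKN2B was the only inhibitor called against pre-irradiation, and it was called on each day. It encodes p15, an INK4 inhibitor of CDK4 and CDK6 that transforming growth factor beta induces in many cells. Signals were 7.08, 6.07, 6.33, 6.0, 6.82, 6.78 and 7.00 on pre-irradiation arrays 1 to 7. They were 8.98, 7.48, 8.62 and 8.21 at day 3, between 7.56 and 9.04 (median 8.11) at day 5 and between 7.33 and 8.90 (median 8.34) at day 7. No later array overlapped the pre-irradiation range, and all animals were higher on each day. Of named genes, 9.08%, 4.98% and 2.08% separated upwards in this way on days 3, 5 and 7.

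The CDKN2B change was 1.74 at day 3 (SE 0.31, adjusted p = 0.0016, 3.34-fold), 1.57 at day 5 (SE 0.25, adjusted p = 0.000344, 2.97-fold) and 1.53 at day 7 (SE 0.27, adjusted p = 0.000772, 2.88-fold). Within session 1 the day 7 change was 1.5 (adjusted p = 0.00354). Against the pre-irradiation array of session 2 alone, the day 3 and day 5 changes were 1.5 and 1.33, with adjusted p of 0.279 and 0.188. In the blocked fit the day 3 value was 1.78 with an adjusted p of 0.00831, not called, and it was also not called without replicates 1, 4 or 7. With normexp background correction the changes shrank to 0.92, 0.83 and 0.86 and none was called (adjusted p = 0.0572, 0.0279 and 0.0373). With the scan session as a block they were not called at day 3 (1.41, adjusted p = 0.0484) or day 5 (1.25, adjusted p = 0.0604), nor with the slide as a block (1.51 and 1.39, adjusted p = 0.0646 and 0.29).

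A dimmer CDKN2B probe was well above background on 1 of 7 pre-irradiation arrays and on all later ones. Pre-irradiation arrays read 4.38 to 6.15 there, day 3 arrays 6.04 to 7.70, day 5 arrays 5.29 to 7.88 and day 7 arrays 5.87 to 7.67. With 6 of 7 pre-irradiation arrays not well above background, no size of change is given for it.

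Monocyte and neutrophil markers were also higher on some of these days. The share of all named genes called higher was 5.9%, 6.24% and 2.71% on days 3, 5 and 7. Of the monocyte list, 4, 4 and 1 of 9 tested genes were called higher on days 3, 5 and 7, and the summed monocyte signal was 107000 to 170000 before irradiation, against 195000 to 316000 on day 3 arrays, 161000 to 271000 on day 5 arrays and 108000 to 216000 on day 7 arrays, which overlap the pre-irradiation range. Of 7 tested neutrophil genes, 2, 2 and 0 were called higher, and the summed neutrophil signal was 138000 to 339000 before irradiation. Day 3 arrays had 300000 to 635000 of it, day 5 arrays 304000 to 546000 and day 7 arrays 120000 to 321000. Their part in the CDKN2B result was not tested.

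CDKN2D (p19) was not called against pre-irradiation on any day. Pre-irradiation arrays ran from 14.65 to 15.60 (median 14.88), day 3 arrays read 16.19, 15.53, 15.79 and 15.52, day 5 arrays ran from 14.55 to 15.21 and day 7 arrays from 13.24 to 14.72 (median 14.40). Changes were 0.79 (SE 0.21, adjusted p = 0.0133), -0.15 (adjusted p = 0.545) and -0.71 (SE 0.23, adjusted p = 0.0329). All 4 animals were higher at day 3 and all 7 lower at day 7. Day 7 lay below day 3 by -1.5 (SE 0.29, adjusted p = 0.00758), just short of the threshold, with no overlap of the arrays. Such a separation downwards between days 3 and 7 was found in 7.38% of named genes.

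CDKN2C (p18), an inhibitor known in lymphocyte and stem cell quiescence, varied more between animals than between days. It ran from 9.27 to 10.52 before irradiation, from 8.45 to 9.45 at day 3 and from 9.16 to 11.20 at day 7, while day 5 arrays had a median of 9.09 and an SD of 0.94. Changes were -0.81 (SE 0.27, adjusted p = 0.0345), -0.26 (SE 0.37, adjusted p = 0.617) and 0.10 (SE 0.31, adjusted p = 0.839), none called. Within animals the day 5 change ran from -1.69 to 0.93.

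CDKN1B (p27) was measured with the least spread of the members before irradiation (SD 0.18 at its only probe, with means of 14.05, 13.86, 14.15 and 13.73 in time order). Its changes of -0.18, 0.11 and -0.32 were not called (adjusted p = 0.359, 0.598 and 0.19), and their 95% intervals reached from -0.70 to 0.42. Within arrays CDKN2B gained on CDKN2D by 0.94 at day 3, 1.72 at day 5 and 2.23 at day 7 (exact permutation p = 0.0182, 0.00117 and 0.000583, adjusted 0.0364, 0.00389 and 0.00389).

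RB1, the retinoblastoma protein that holds E2F factors in check, fell at day 3. Its brightest probe ran from 11.86 to 12.34 (median 12.20) before irradiation, and the day 3 arrays read 11.06, 11.12, 11.62 and 11.54, all below that range. At day 5 it ran from 10.98 to 11.94 (median 11.37), with 5 of 6 arrays below the pre-irradiation range, and at day 7 from 11.64 to 12.26 (median 11.86). Such a separation downwards was found in 12.2% of named genes at day 3.

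The RB1 change was -0.80 at day 3 (SE 0.17, adjusted p = 0.00425, 1.75-fold lower), -0.70 at day 5 (SE 0.17, adjusted p = 0.00564) and -0.27 at day 7 (SE 0.14, adjusted p = 0.168). All animals were lower on each day. It was called at day 3 in 6 of 19 alternatives, which gave changes from -0.91 to -0.31. The call was lost with 75th percentile scaling, quantile normalization, normexp, no filter on dim probes, and the slide or session block. It was not called without replicates 1, 2, 3, 4 or 7, nor with the block (-0.91, adjusted p = 0.0197), where day 5 was called (-0.74, adjusted p = 0.00472). Against the single pre-irradiation array of session 2 the day 3 change was -0.53 (adjusted p = 0.534).

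A probe shifted by 1 base and sharing 59 bases with it is not a separate measurement, and gave -0.77, -0.62 and -0.26. Day 7 lay above day 3 by 0.53 at the brightest probe (SE 0.19, adjusted p = 0.0785, not called), with no overlap of the arrays, as in 6.13% of named genes. A separate RB1 probe at base 3727 gave -0.91 (adjusted p = 0.00626), -0.73 (adjusted p = 0.014) and -0.22 (adjusted p = 0.448), none called.

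T-cell markers had their lowest median summed signal at day 3, where RB1 was called, and B-cell markers were low on all 3 days. Among 14 tested T-cell genes, 3, 1 and 0 were called lower on days 3, 5 and 7, where 7.57%, 9.09% and 7.14% of named genes were. The summed T-cell signal ran from 155000 to 259000 before irradiation. Day 3 arrays had 75000 to 148000, day 5 arrays 107000 to 141000 and day 7 arrays 123000 to 210000. All 10 tested B-cell genes were called lower at days 3 and 5 and 9 at day 7. Their summed signal was 32500 to 46100 on pre-irradiation arrays. Day 3 arrays had 1890 to 4700, day 5 arrays 2310 to 3500 and day 7 arrays 2950 to 6750. VPREB3 was not above background on any later array. Their part in the RB1 result was not tested.

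RBL2 (p130), the pocket protein of resting cells and a core of the DREAM repressor, has probes that differed in how often they were above background. The brighter one starts at base 496 of the transcript, on chr20:51691224-51691283 (rheMac2, plus strand), and the dimmer one at base 5642, on chr20:51738224-51738283. The former is printed because it is the probe that measured RBL2 above background on every array.

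RBL2 brighter probe: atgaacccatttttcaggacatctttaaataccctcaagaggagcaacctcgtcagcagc

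That probe ran from 8.47 to 9.67 before irradiation, from 8.19 to 9.31 at day 3, from 7.84 to 9.44 at day 5 and from 8.89 to 9.90 at day 7. Its changes of -0.46 (SE 0.26), -0.34 (SE 0.25) and 0.38 (SE 0.21) were not called (adjusted p = 0.193, 0.316 and 0.19), though 7 of 7 animals were higher at day 7.

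The dimmer RBL2 probe was well above background on 0 of 7 pre-irradiation arrays, 3 of 4 at day 3, 6 of 6 at day 5 and 7 of 7 at day 7. It passed the filter on dim probes only through the later arrays, so its tests set signal against readings at background. Its signal was at least 1.26-fold higher at day 5 (adjusted p = 0.0352) and at least 1.85-fold higher at day 7 (adjusted p = 0.00573), neither called. In this bound, each pre-irradiation array counts with the lowest signal that was well above background there, or with the signal of the probe itself where that is higher. Within arrays RBL2 gained on RB1 by 0.35, 0.36 and 0.66 on days 3, 5 and 7 at the brighter probes. The exact permutation p values were 0.376, 0.309 and 0.00991 (adjusted 0.49, 0.421 and 0.027). Within animals the day 7 difference was higher in 7 of 7 (exact sign-flip p = 0.0156, adjusted 0.0781).

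Between days 3 and 5 limma called none of the 10 members, and 3 of them (CCND3, CDK4 and CDKN2D, all lower at day 5) had an unadjusted p under 0.05. In that comparison 0.0378% of named genes were called, and 10.1% of all probes and 4 of the 17 member probes had an unadjusted p under 0.05. The CDKN2D difference was -0.94 (SE 0.20, adjusted p = 0.0958), the CDK4 difference -0.96 (adjusted p = 0.213) and the CCND3 difference -0.80 (adjusted p = 0.159). In all 3 every day 5 array lay below every day 3 array, as in 2.68% of named genes. Between days 5 and 7 limma again called none, 5 had an unadjusted p under 0.05, as did 7 of the 17 probes and 20.8% of all probes, and 0.00946% of named genes were called. No member separated days 5 and 7 without overlap, which 1.07% of named genes did upwards and 1.5% downwards. The CCND3 difference was -0.55 (SE 0.16, adjusted p = 0.0766), and the RBL2 difference 0.72 (SE 0.25, adjusted p = 0.124).

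The order of the group levels can therefore be read only in part. For CCND2, CDKN2B and CDK4, days 5 and 7 differed by 0.13 (interval -0.27 to 0.54), -0.04 (interval -0.66 to 0.58) and -0.17 (interval -0.67 to 0.33), inside the spread between arrays.

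The day 7 change was compared between the sexes, 4 males and 3 females. Limma called none of the 10 members and 0% of named genes, none of the members had an unadjusted p under 0.05, and 2 of the 17 probes did, beside 8.69% of all probes. At the brighter CDK4 probe the change was -2.12 in males and -2.69 in females, a difference of -0.57 (SE 0.69, adjusted p = 0.838). The CDK6 change was 0.99 in males and 1.44 in females (difference 0.45, SE 0.45, adjusted p = 0.793), and that of CDKN2B 1.5 and 1.56 (difference 0.06, SE 0.50, adjusted p = 0.984). The probes were the RB1 probe at base 3727, at -0.63 in males and 0.32 in females (adjusted p = 0.487), and the second CCND2 probe, at 1.68 and 1.01 (adjusted p = 0.538).

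Other genes of the pathway were counted from lists chosen with earlier results of these data known. Of 24 other genes of the G1-to-S switch, 18 were tested, and 2 were called higher and 3 lower at day 3, 2 and 2 at day 5, and 3 and 1 at day 7. Over all named genes 5.9%, 6.24% and 2.71% were called higher and 7.57%, 9.09% and 7.14% lower on days 3, 5 and 7, and the median changes of the list were -0.40, -0.12 and 0.09. CDKN1A (p21), the inhibitor that p53 induces after DNA damage, rose by 3.40 at day 3 (adjusted p = 2.62e-06), 2.01 at day 5 (adjusted p = 5.14e-06) and 1.01 at day 7 (adjusted p = 0.000935). RBX1, the RING subunit of cullin ubiquitin ligases, fell on each day, with changes of -1.90, -2.65 and -2.80 (adjusted p = 0.000255, 3.85e-06 and 8.78e-06). CCNE2, the cyclin that activates CDK2 after the D-type cyclins, was above background on no pre-irradiation array and on 6 of 7 at day 7, at least 2.54-fold higher (adjusted p = 0.000575). CCNE2 passed the filter on dim probes only through days 5 and 7. Its call, 1 of the 3 higher at day 7, therefore sets signal against readings at background.

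Among E2F, DP and MuvB genes, the partners of the RB family at promoters, 14 of 15 were tested. None was called higher and 4 lower at day 3, none and 4 at day 5, and 1 and 2 at day 7, to be read against the shares of all named genes just given. TFDP2, a dimer partner of E2F, changed by -3.88, -5.68 and -4.95 (adjusted p = 0.000473, 1.28e-07 and 1.65e-05). E2F5, a partner of RBL2 in repression, was above background on all 7 pre-irradiation and on no day 3 array, at least 4.99-fold lower (adjusted p = 8.13e-06). FOXM1, a later activator of mitosis genes, rose by 1.86 at day 7 (SE 0.37, adjusted p = 0.00204).

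Of 22 replication genes that E2F factors switch on, 19 were tested, and 1, 1 and 8 were called higher on days 3, 5 and 7 with none lower. Over all named genes 5.9%, 6.24% and 2.71% were called higher on those days. Between days limma called none of the 19, with an unadjusted p under 0.05 for 5 of them when day 5 was set against day 3, for 16 when day 7 was, and for 0 when day 7 was set against day 5, where 10.1%, 32.7% and 20.8% of all probes were. Their median change was -0.27, 0.59 and 1.05. TYMS, which makes thymidylate, rose by 2.63, 2.25 and 1.92 (adjusted p = 8.24e-06, 5.02e-05 and 6.09e-05). UHRF1, which carries DNA methylation through replication, rose by 2.33 at day 7 (SE 0.40, adjusted p = 0.000712), and CDT1, which licenses origins, by 1.81 (SE 0.30, adjusted p = 0.000596). POLA1, the catalytic subunit of the polymerase that primes DNA synthesis, was above background on no pre-irradiation array, 5 of 6 day 5 and 5 of 7 day 7 arrays. It was at least 1.59-fold higher at day 5 (adjusted p = 0.00772, not called), and at day 7 it was called (adjusted p = 0.0035) with no bound on its size. POLA1 passed the filter on dim probes only through days 5 and 7. Its call, 1 of the 8 at day 7, therefore sets signal against readings at background.

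**Figure D4:**
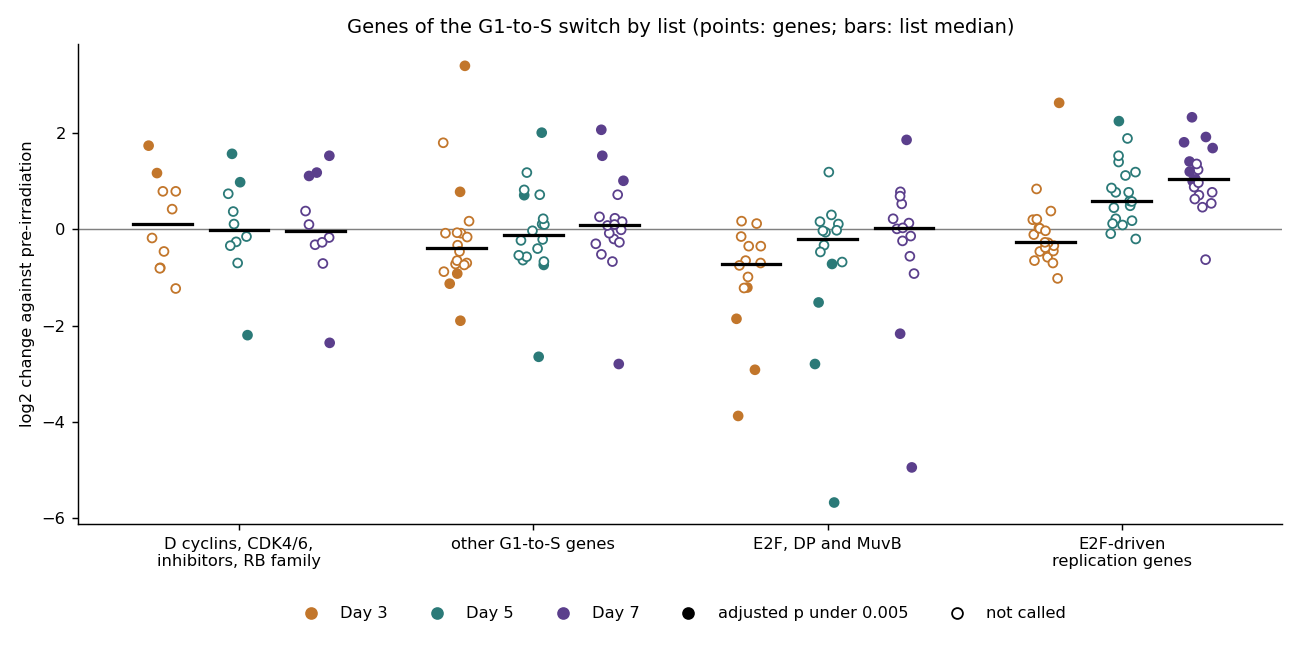
Change against pre-irradiation (vertical axis, log2) of each tested gene in the 10 members and in 3 further lists of the G1-to-S switch at days 3, 5 and 7. Points are genes, filled where the adjusted p was under 0.005, and bars are list medians. The replication genes shift from a median of -0.27 at day 3 to 1.05 at day 7, while the median of the members stays near 0 with 4 of 10 called at day 7.

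**Figure D5:**
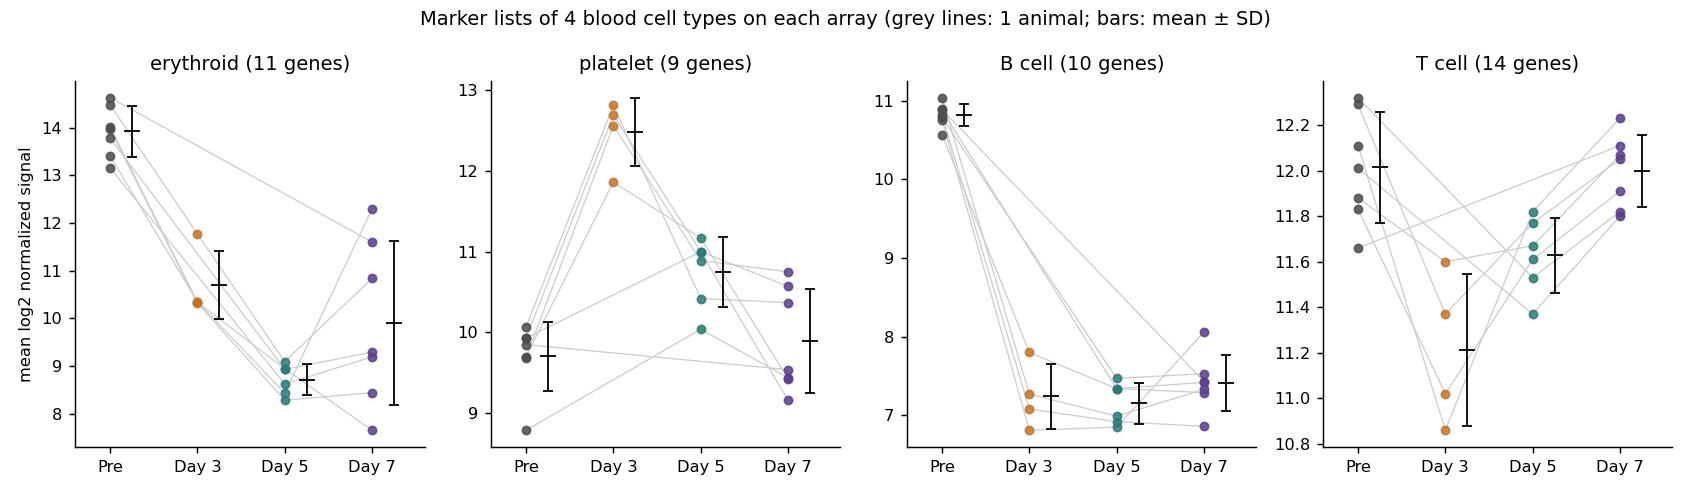
Mean log2 normalized signal (vertical axis) of the tested markers of erythroid cells, platelets, B cells and T cells on each array, by group. Points are arrays, grey lines join one animal, and bars are the mean and SD. Erythroid and B-cell markers fall after irradiation, platelet markers peak at day 3, and the erythroid level at day 7 spreads from 7.65 to 12.30.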

How the data were processed

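Whole-blood RNA of rhesus macaques was hybridized by the authors to one-colour Agilent arrays, and the deposited scanner files hold a background-subtracted processed intensity for each spot. The labels name Feature Extraction 10.7, whereas the file headers give 12.0.2.2, and a human design is named in the methods where labels and probes are rhesus (rheMac2). The authors' deposited table of log2 values of the same arrays served as an alternative. Here the log2 processed intensity was used. Outlier spots were dropped and saturated spots kept. Arrays were shifted to the median array, by -2.03 to 0.874. A probe had to be well above background on 4 or more of the 24 arrays, and the 27133 that were entered the tests with limma 3.58.1 in R 4.3.3, each comparison in its own fit, two-sided, with a threshold of 0.005 on the Benjamini-Hochberg adjusted p. Within-array differences between probes were tested by exact permutation over samples (Python 3.11.15, numpy 2.4.6, scipy 1.17.1). Scripts were tested on simulated data.

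Groups came from the labels. Same-numbered arrays deviated together: correlations of their deviations from the group means were 0.134 to 0.414 for pre-irradiation with day 3, 0.171 to 0.454 with day 5 and 0.132 to 0.439 with day 7, so the numbers were taken to pair the samples. The labels' protocol names more animals than have arrays here. Members and gene lists were chosen with earlier results of these data known. All genes named among the members are described. From each other pathway list, the 3 called genes with the largest change on any day were named, with CDT1 added because it ranks above POLA1 where only called changes count, and for each called member the 3 genes nearest in pattern. Alternatives covered scaling, quantile normalization, normexp background, filters on dim probes, outlier spots, the authors' values, blocks for replicate number, slide and scan session, values within a session, and leaving out each replicate. Multi-probe genes are represented by the brightest probe. Exon annotation and a genome were not used here.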

Additional observations from a re-analysis of the deposited data

Results flagged for a closer look

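On the day 7 array of replicate 4, the brighter CDK4 probe read 13.31, and the next highest day 7 array read 12.43. That gap was 0.657 of the range of the day 7 arrays, above the limit for 7 samples. A total of 40 groups of values were looked at in this way, and chance marks about 1 in 20 of them. The same array had the highest mean erythroid marker level at day 7, 12.30 on the log2 scale, and a summed erythroid signal of 927000. The next highest erythroid levels at day 7 were 11.60 on replicate 5 and 10.84 on replicate 2, where CDK4 lay below the second highest day 7 reading, and the lowest was 7.65 on replicate 7, where CDK4 read 11.98. The part of these markers in the CDK4 value was not tested.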

How the results depend on the processing

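The number of members called kept within 1.5 times its value in 12 of 21 alternatives at day 3, 18 of 21 at day 5, 20 of 22 at day 7 and 5 of 20 between days 3 and 7. For day 5 against day 3, day 7 against day 5 and the sexes it stayed at 0 in every alternative run. At day 3 the count of 3 went to 0 with normexp background, with the replicate block, with the slide or scan session as a block and within session 2, and ran from 0 to 3 when a replicate was left out (0 without replicate 1, 4 or 7). At day 5 the count of 3 went to 0 with normexp, the slide block and within session 2, and ran from 2 to 3 when a replicate was left out. At day 7 the count of 4 went to 1 with normexp and ran from 2 to 4 when a replicate was left out (2 without replicate 7). Between days 3 and 7 the count of 1 went to 0 with quantile normalization, normexp, no filter, the replicate block, the slide block, the session block and within session 2, went to 2 with the strict filter or all groups in 1 fit, and ran from 0 to 1 when a replicate was left out. With the replicate block in a fit of all groups, an alternative chosen after seeing the data, 3, 4 and 5 members were called on days 3, 5 and 7. Among changes that were not called, the sign turned for RBL2 at day 3 (0.01, session block), for CDKN2D at day 5 (0.17 quantile, 0.15 no filter, 0.03 session block, 0.16 within session 2), for CCND3 at day 5 (-0.18 normexp, -0.38 slide block, -0.01 session block, -0.13 within session 2), for CDKN1B at day 5 (-0.37 normexp, -0.27 slide block), for CDKN2C at day 5 (0.04 no filter, 0.00 without replicate 1), for RBL2 at day 5 (0.13 session block, 0.07 within session 2), for CCND3 at day 7 (0.04 quantile, 0.10 no filter), for CDKN1B at day 7 (0.04 quantile) and for CDKN2C at day 7 (-0.06 without replicate 3, -0.07 without replicate 4). Leaving out replicates gave CDKN2C changes from -0.51 to 0.00 at day 5 and from -0.07 to 0.28 at day 7. The cause was not tested. The replicate block changed the calls named beside the results. Values for days 3 and 5 within session 2 rest on 1 pre-irradiation array. Dim probes, such as the dimmer RBL2 probe with 0 of 7 pre-irradiation arrays above background, give a bound only.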

Other observations

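The genes whose pattern over the 24 arrays lay nearest to a called member were found by the root mean square difference in log2 signal, each gene taken relative to its pre-irradiation mean, as a description of these arrays with no test. For CCND2 they were KIAA1468 (0.339), LRRC8A (0.341) and ATG16L1 (0.348), where the median over genes was 1.06. For CCND3 they were DTD1 (0.287), ILK (0.288) and MAD1L1 (0.291), with a median of 0.856. For CDK4 they were MED16 (0.387), TRIM3 (0.455) and RAB11B (0.469), with a median of 1.92. CDK6 lay nearest to MTCP1 (0.361), EOGT (0.371) and ZFYVE16 (0.386), with a median of 1.03. CDKN2B lay nearest to ZMAT3 (0.456), THBD (0.472) and PPFIA4 (0.472), with a median of 1.53. RB1 lay nearest to CAMK2D (0.196), CDKN2AIP (0.199) and ELAVL1 (0.21), with a median of 0.82.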
